A study of Mus musculus with 30 samples.

Results

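The S100 family consists of small calcium-binding proteins, and 6 of its genes, S100a1, S100a4, S100a6, S100a10, S100a11 and S100a13, were followed here through chemical reprogramming of mouse cells. The members were the probes annotated with 1 of these 6 gene symbols. Each gene had 1 probe, and together they were 6 of 20 probes with an S100 symbol and 6 of 23629 genes or unnamed probes in the series. RNA of 30 samples was hybridised to a 1-colour oligonucleotide array, and values are linear intensities. The samples came in 5 sets that were normalised separately, so lines were compared with the cells of their own set.

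The somatic samples were 4 of mouse embryonic fibroblasts (MEF1, MEF2, MEF3 and WT MEF, the last labelled wild type), and 1 sample each of fibroblasts from newborn mice (MNF), fibroblasts from adult lung (MAF) and adipose-derived stem cells of adults (ADSC), all untreated. Chemically induced pluripotent stem cell (CiPSC) lines gave 11 samples, each 1 line. Their small-molecule treatments are given in the labels as letter codes, which are not spelled out there. In set 1 these were CiPS34 (VC6TFMP+Z), MNF CiPS7 (VC6TFS+Z), CiPS50 (VC6F+Z) and CiPS21 (VC6TFDBS+Z). Set 2 held MNF CiPS1 (VCT6FMDBR+Z), MAF CiPS3 (VC6TFDM+Z), CiPS45 (FC6+Z) and ADSC CiPS2 (VC6TFMPS+Z). CiPS WT1 and CiPS WT2 of set 3 were made from wild-type MEF with VC6TFMPS+Z, and the CiPSC control line of set 5 with VC6TF+Z. The name prefixes MNF, MAF and ADSC give the cells of origin, and the other lines came from MEF. For ADSC CiPS2 the labels disagree, since its source entry names adult lung fibroblasts. The comparison lines were 2 OSKM iPSC lines with no chemical treatment, 2 SKM-FSK iPSC lines treated with F, and 5 samples of embryonic stem cells (ESC), 4 of line R1 (ESC1, ESC3, ESC4, ESC5) and 1 of line TT2 (ESC2). MEF treated for 12 days with VC6TF, and for 20 and 32 days with VC6TF+Z, gave 1 sample each. All pluripotent lines were kept on feeder layers of mitomycin C-treated MEF, per the labels' growth protocol.

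S100 proteins carry a pair of EF-hands, the helix-loop-helix fold that holds calcium, and mostly act as dimers that expose a binding surface when calcium rises. They have no enzyme activity and work through partners such as annexins, non-muscle myosin and membrane channels. S100a4 is widely used as a fibroblast and mesenchymal marker, and S100a6, S100a10 and S100a11 are abundant in fibroblasts.

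All 6 genes lie on chromosome 3 (RefSeq, assembly GRCm38.p6), among 15 of the 20 S100-named genes. S100a1 (chr3:90511034-90514330) and S100a13 (chr3:90514233-90524581) run in opposite directions from a shared start region, and their annotated genes overlap by 98 bases. S100a4 (chr3:90603770-90606045) and S100a6 (chr3:90612894-90614414) are separated by 6849 bases. S100a11 (chr3:93520496-93526288) and S100a10 (chr3:93555117-93564645) lie 2.91 Mb further on, 28829 bases apart. The promoters of S100a4, with the deepest fall between somatic and pluripotent cells, and of S100a11, the member that differed between CiPSC and ESC, are shown as the 250 bases before the annotated start on the strand of the gene (chr3:90603520-90603769 and chr3:93520246-93520495, both on the plus strand). Capitals mark the searched motifs, namely the TATA box TATAAA, the CCAAT box CCAAT, the GC box GGGCGG, the AP-1 site TGACTCA or TGAGTCA, and the cAMP response element TGACGTCA, each on both strands except the TATA box. No match overlapped another.
S100a4: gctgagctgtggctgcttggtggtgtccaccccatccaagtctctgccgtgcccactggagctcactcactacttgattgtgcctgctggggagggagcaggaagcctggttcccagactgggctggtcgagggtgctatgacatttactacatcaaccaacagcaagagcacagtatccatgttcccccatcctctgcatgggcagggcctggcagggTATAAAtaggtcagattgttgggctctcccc
S100a11: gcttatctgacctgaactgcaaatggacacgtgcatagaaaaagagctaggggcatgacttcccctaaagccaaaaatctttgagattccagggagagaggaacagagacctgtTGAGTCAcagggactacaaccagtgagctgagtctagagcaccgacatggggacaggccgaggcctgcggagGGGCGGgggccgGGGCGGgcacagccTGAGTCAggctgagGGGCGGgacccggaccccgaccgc

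The S100a4 window held a TATA box starting 31 bases before the start, a motif found in 7.59% of 32851 promoter windows of the same length. In S100a11 the AP-1 letters stood 136 and 38 bases before the start and the GC box 64, 52 and 24 bases before it. At least 2 AP-1 matches occurred in 0.167% of all promoter windows, and at least 3 GC boxes in 8.47%. The S100a6 window held a CCAAT box, found in 33.8% of windows, and those of S100a1 and S100a13 held none of the motifs. S100a10 is named only. These matches describe letters in a window and were not related to any value below.

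S100a4 and S100a6 showed the deepest falls from somatic to pluripotent cells. S100a4, which binds non-muscle myosin and is linked to cell motility, had an intensity of 16229 at the lowest, 23490 at the median and 33191 at the highest of the 7 somatic samples. In the 11 CiPSC lines the lowest was 58.4 (CiPS34), the median 183 and the highest 1437 (CiPS WT2). ESC gave 412, 70.9, 166, 124 and 275 in sets 1 to 5. No pluripotent line came near a somatic sample, although the CiPSC lines themselves spread over more than an order of magnitude. The 2 OSKM iPSC lines lay at the ends of that spread, with 66.1 in OSKM iPS1 and 1158 in OSKM iPS2. The 2 SKM-FSK iPSC lines were close together at 236 and 326.

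The fitted difference in log2 intensity, with set as a term, was -6.36 ± 0.66 (SE; 11 CiPSC, 7 somatic samples; limma adjusted p = 1.3e-07). Against the same somatic samples the S100a4 difference was -7.08 ± 0.77 in ESC (n = 5, limma adjusted p = 3.6e-07), -5.85 ± 1.08 in OSKM iPSC (n = 2, limma adjusted p = 4.3e-04) and -6.20 ± 1.35 in SKM-FSK iPSC (n = 2, limma adjusted p = 0.00341). These comparisons share their somatic samples. Within a set, the mean of the somatic samples exceeded the CiPSC lines by 11.3-fold (CiPS WT2) or more. The lowest S100a4 values were dim, with CiPS34 at the 12.1 percentile of its sample's probes, so larger folds are imprecise.

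S100a6, or calcyclin, which binds the ubiquitin ligase component Cacybp, had somatic intensities of 46481 at the lowest, 64466 at the median and 65492 at the highest. The brightest probe of each set lay at 65490 or slightly above, so 4 of 7 somatic values (MEF1, MEF2, MEF3 and ADSC) were at the upper end of the scale, and folds from them are lower bounds. The CiPSC lines had 590 at the lowest (MNF CiPS1), 3967 at the median and 20804 at the highest (CiPS WT2). ESC gave 3621, 1487, 15767, 573 and 2363 in sets 1 to 5. The 3 pluripotent samples of set 3 stood above all others, CiPS WT1 at 14832 and ESC3 included, and still below WT MEF at 46481. The OSKM iPSC lines had 1965 and 6200, and the SKM-FSK iPSC lines 902 and 881. S100a6 fell in all 4 kinds of line, with log2 differences of -3.99 ± 0.50 in CiPSC (limma adjusted p = 1.6e-06), -4.58 ± 0.59 in ESC (limma adjusted p = 3.0e-06), -3.85 ± 0.82 in OSKM iPSC (limma adjusted p = 0.00163) and -5.06 ± 1.03 in SKM-FSK iPSC (limma adjusted p = 0.00193). Against MEF2 of their own set, SKM-FSK1 and SKM-FSK2 differed by -6.17 and -6.20, both outside the fitted value.

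Fibroblast markers moved with these 2 genes. Of 14 listed fibroblast markers 11 were tested, and 9 were called lower in CiPSC and 11 in ESC than in somatic cells. Over all genes tested, 13.1% and 14.0% were called lower in these comparisons. Col1a2 (-4.09) and Postn (-3.21) were lower in CiPSC and not called. In bulk RNA, fewer fibroblasts and less RNA per cell cannot be told apart, and the pluripotent lines grew on feeder fibroblasts. No marker of the list was at 0, and 2, 5, 11, 13 and 14 of the 14 were measured in sets 1 to 5. The summed intensity of the measured markers was 11.1 and 12.9% of WT MEF in CiPS WT1 and CiPS WT2, against 0.977% in ESC3. The sum of the 3 smooth muscle markers measured there was 70.8 and 69.4% of WT MEF in these lines and 4.69% in ESC3. In the fit over the sets that measured them, all 3, Acta2, Tagln and Myh11, were called lower in CiPSC and in ESC than in somatic cells. For CiPSC these calls rest on 2 sets for Acta2 and Tagln and on 3 for Myh11. Within set 3, Myh11 was higher in CiPS WT1 (1390) and CiPS WT2 (1480.5) than in WT MEF (365), while Acta2 and Tagln were lower. The fibroblast marker sum in the other 9 CiPSC lines was 0.57 to 3.86% of the mean somatic sum of their set, highest in MAF CiPS3. S100a4 in CiPS WT1 and CiPS WT2 was 1197 and 1437 against 166 in ESC3, and in MAF CiPS3 it was 914 against 70.9 in ESC2. OSKM iPS2, with S100a4 at 1158, had a marker sum of 1.54%. S100a6 in ESC3 was 15767 at a marker sum of 0.977%. Pdgfra was at 35.4 and 44.3 in CiPS WT1 and CiPS WT2, close to the 25.3 of ESC3. The part of feeder, residual fibroblast or smooth muscle RNA in S100a4 and S100a6 was not tested.

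**Figure D1:**
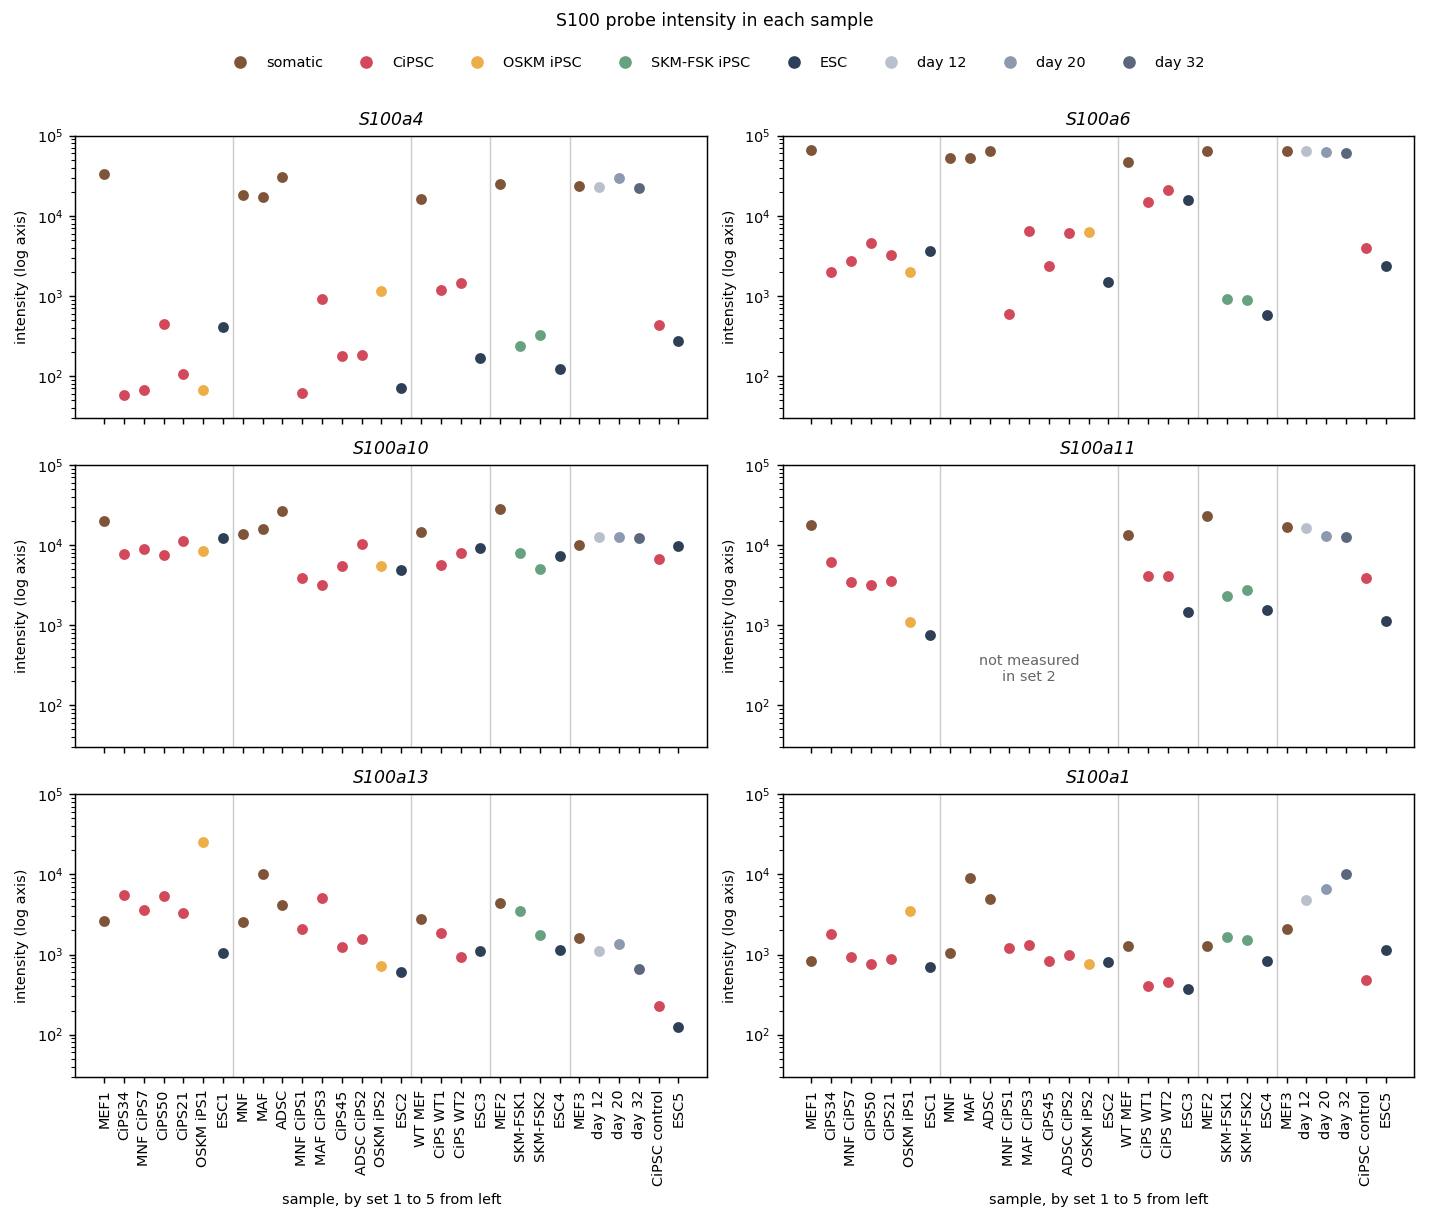
Intensity (log axis) of the 6 S100 probes in each sample, arranged by set from left to right with grey lines between sets and coloured by group. S100a4 and S100a6 separate the somatic and day 12 to 32 samples from all pluripotent lines, S100a10 shifts by less than these, and S100a11, not measured in set 2, lies higher in each CiPSC line than in the ESC of its set.

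S100a10 and S100a11 are annexin partners, and both fell in pluripotent cells by less than S100a4. S100a10, which does not bind calcium and forms a membrane complex with annexin A2, had somatic intensities of 9982 at the lowest (MEF3), 16097 at the median and 28222 at the highest (MEF2). The CiPSC lines had 3202 at the lowest (MAF CiPS3), 7537 at the median and 11134 at the highest (CiPS21). ESC gave 12085, 4843, 9322, 7312 and 9697. Over all sets the ranges of the groups overlapped, but within its own set each of the 15 induced lines lay below every somatic sample. S100a10 had log2 differences from somatic cells of -1.45 ± 0.25 in CiPSC (limma adjusted p = 8.9e-05), -1.16 ± 0.30 in ESC (limma adjusted p = 0.00405), -1.47 ± 0.41 in OSKM iPSC (limma adjusted p = 0.0127) and -1.76 ± 0.52 in SKM-FSK iPSC (limma adjusted p = 0.0258). The ESC difference was -0.99 without ESC2, without ESC4 or without MEF2 and -0.84 without set 2, below the 2-fold limit. The SKM-FSK iPSC call was lost without SKM-FSK1 (adjusted p = 0.0612), without SKM-FSK2 (0.228) or without set 1 (0.0697).

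S100a11, or calgizzarin, which pairs with annexin A1 and takes part in membrane repair, was measured in 21 samples of sets 1, 3, 4 and 5. The 4 MEF samples had 17613, 13375, 23304 and 16627 in sets 1, 3, 4 and 5. ESC of the same sets had 751, 1443, 1548 and 1118. The 7 CiPSC lines lay between, with 3132 at the lowest (CiPS50), 3921 at the median and 6096 at the highest (CiPS34). Within sets 1, 3 and 5, each CiPSC line lay below the MEF and above the ESC sample of its set. Against somatic cells the S100a11 difference was -3.89 ± 0.27 in ESC (limma adjusted p = 1.4e-07), -1.97 ± 0.26 in CiPSC (limma adjusted p = 4.4e-05) and -3.20 ± 0.41 in SKM-FSK iPSC (limma adjusted p = 2.0e-04). It was measured in 1 OSKM iPSC line only, at 1101, and was not tested there.

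S100a13 and S100a1, the neighbouring pair, changed unevenly. S100a13, which takes part in the release of Fgf1 and Il1a without a signal peptide, had somatic intensities of 1611 at the lowest, 2761 at the median and 9980 at the highest (MAF). The CiPSC lines ran from 228 (CiPSC control) over a median of 2091 to 5547 (CiPS34), and overlapped the somatic range. ESC gave 1054, 603, 1114, 1141 and 126. S100a13 fell by 2.39 ± 0.59 on the log2 scale in ESC (limma adjusted p = 0.00319). In CiPSC the difference from somatic cells was -1.04 ± 0.50, which did not pass (limma adjusted p = 0.11), and it passed without MEF1 (-1.49, adjusted p = 0.0263) or without set 1 (-1.40, adjusted p = 0.024). The differences of -0.38 ± 0.83 in OSKM iPSC and -1.05 ± 1.04 in SKM-FSK iPSC did not pass either.

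S100a1, best known from muscle, where it acts on calcium release and uptake, had somatic intensities of 829 at the lowest (MEF1), 1294 at the median and 9018 at the highest (MAF). ADSC, the other adult sample, had 4902. The CiPSC lines ran from 400 (CiPS WT1) over a median of 868 to 1780 (CiPS34), and ESC gave 708, 805, 376, 821 and 1138. The groups overlapped. The S100a1 difference from somatic cells was -1.30 ± 0.41 in CiPSC (limma adjusted p = 0.0166) and -1.32 ± 0.49 in ESC (limma adjusted p = 0.0396). With MEF as the only somatic samples these differences were -0.74 (adjusted p = 0.163) and -0.88 (adjusted p = 0.112), and without MAF -0.96 (adjusted p = 0.0508) and -1.05 (adjusted p = 0.0634). The CiPSC call was also lost without set 2 (-0.86, adjusted p = 0.112) or set 3 (-1.25, adjusted p = 0.0599). The ESC call was lost without ESC1, ESC2, ESC3, ADSC, WT MEF or MEF3 in turn, at adjusted p of 0.0541 to 0.0996. In OSKM iPSC the difference was -0.57 ± 0.68 and in SKM-FSK iPSC -0.05 ± 0.86, neither of which passed.

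Counted over the members, 5 of 6 were called lower in CiPSC than in somatic cells, where 13.1% of 16497 genes tested were called lower. In ESC against somatic cells it was 6 of 6, against 14.0% of 16509 genes. In OSKM iPSC it was 3 of 5, against 9.78% of 11406 genes, and in SKM-FSK iPSC 4 of 6, against 7.74% of 16260 genes. No member was called higher in these comparisons. The median difference of the members was -1.71 in CiPSC and -3.14 in ESC, against -0.11 and -0.10 over all genes tested. A call needed an adjusted p under 0.05 and a fold of at least 2.

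**Figure D2:**
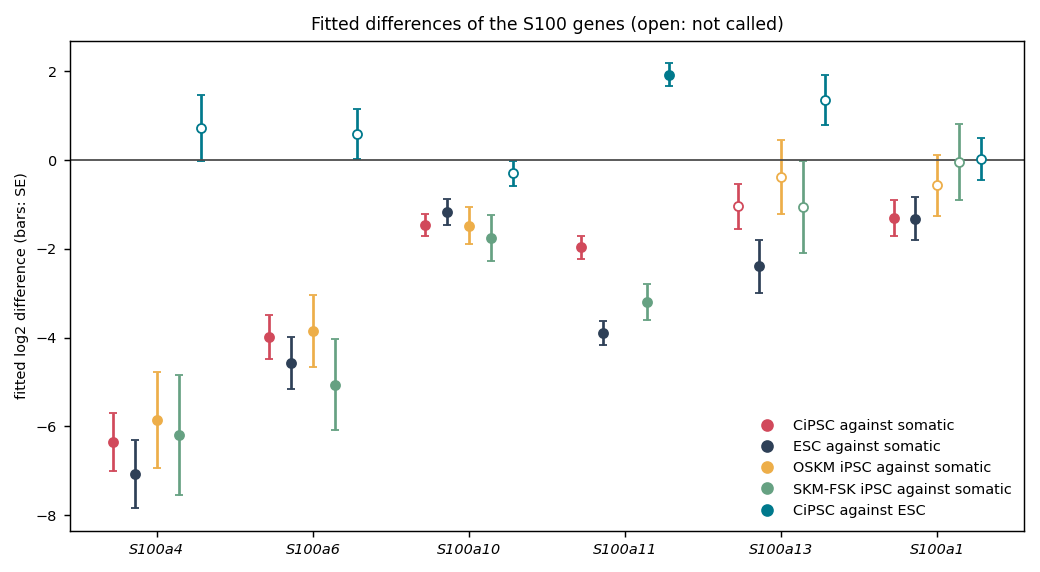
Fitted log2 differences of the 6 genes with their standard errors, for 4 comparisons with somatic cells and for CiPSC against ESC. Filled points were called and open points were not, and S100a11 in CiPSC against ESC (1.93 ± 0.26) is the filled point above 0.

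Lines of set 2 could be set beside their cells of origin. S100a4 went from 17931 in MNF to 62.2 in MNF CiPS1, from 17146 in MAF to 914 in MAF CiPS3, and from 30317 in ADSC to 183 in ADSC CiPS2. S100a1 went from 9018 in MAF to 1332 and from 4902 in ADSC to 999, while MNF and MNF CiPS1 had 1034 and 1196. Each of these pairs is 1 sample against 1 and was not tested. The labels of ADSC CiPS2 disagree on its cells of origin, and its pairing with ADSC follows its name.

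Between CiPSC and ESC, S100a11 was the member that differed. Set 1 had 6096 in CiPS34, 3440 in MNF CiPS7, 3132 in CiPS50 and 3563 in CiPS21, against 751 in ESC1. In set 3 the intensities were 4055 in CiPS WT1 and 4116 in CiPS WT2, against 1443 in ESC3. The CiPSC control line of set 5 had 3921, against 1118 in ESC5. All 7 CiPSC lines were above the R1 sample of their set, by 2.81-fold (CiPS WT1) to 8.12-fold (CiPS34), with a median of 4.17-fold. Lines of a set share 1 ESC sample, so these folds are not independent.

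The fitted S100a11 difference was 1.93 ± 0.26 in log2 intensity (7 CiPSC, 4 ESC; limma adjusted p = 0.0276), and 0.0303% of 16497 genes, 5 in number, were called in this comparison. The size of the difference was stable and the call was not. Leaving out 1 sample at a time gave 1.67 to 2.13, and the call was lost without ESC1 (adjusted p = 0.331), ESC3 (0.0744), CiPS WT1 (0.094), CiPS WT2 (0.0913), CiPSC control (0.0849), CiPS21 (0.054) or MNF CiPS7 (0.0527). It was also lost with no set term (1.76, adjusted p = 0.066) and without both CiPSC lines of set 3 (1.97, adjusted p = 0.316). Fibroblast marker sums in set 1, which rest on Col6a1 and Thy1 alone, were 0.57 to 1.10% of MEF1 in the 4 CiPSC lines and 0.664% in ESC1. In set 3 the sum was 11.1 and 12.9% of WT MEF in CiPS WT1 and CiPS WT2 and 0.977% in ESC3. In set 5 the sum was 2.18% of MEF3 in the CiPSC control and 5.96% in ESC5. Over the 11 fibroblast markers tested in CiPSC against ESC, the median difference was 1.48, with 0 called by limma. An unadjusted limma p under 0.05 held for 3, among them Prrx1 (3.52, unadjusted limma p = 0.00377), and for 799 of all 16497 genes tested. The smooth muscle markers Acta2 (3.24), Tagln (2.86) and Myh11 (2.24) were not called either, at unadjusted limma p of 0.0043, 0.0204 and 0.0375. Acta2, Tagln and the fibroblast markers Col1a2, Col5a1, Pdgfra, Pdgfrb, Postn and Prrx1 had CiPSC and ESC values together in sets 3 and 5 only. For S100a11, set 1 held both groups as well. The part of fibroblast or smooth muscle RNA in the S100a11 difference was not tested.

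The lines made with transcription factors had S100a11 nearer to ESC. OSKM iPS1 was 1.47-fold above ESC1, below all 4 CiPSC lines of its set. SKM-FSK1 at 2286 and SKM-FSK2 at 2775 were 1.48-fold and 1.79-fold above ESC4, a fitted difference of 0.69 ± 0.41 that did not pass (limma adjusted p = 1). Whether these lines differ from CiPSC in S100a11 was not tested. All 10 induced lines measured were above the ESC of their set, as for 2.05% of 1315 genes measured in exactly these samples.

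S100a13 was also above the ESC sample of the set in 10 of 11 CiPSC lines, without passing the test. Unlike for S100a11, only 6 of the 11 lines lay below every somatic sample of their set. The CiPSC lines of set 1 had 5547, 3563, 5319 and 3259 against 1054 in ESC1, and those of set 2 had 2091, 5138, 1236 and 1559 against 603 in ESC2. In set 3, CiPS WT1 at 1830 was above ESC3 at 1114 and CiPS WT2 at 925 was below it. The fitted difference was 1.36 ± 0.57 (unadjusted p = 0.0269, limma adjusted p = 0.958). OSKM iPS1 had 25277, the highest S100a13 value of all 30 samples and 24.0-fold above ESC1, whereas OSKM iPS2 had 718, or 1.19-fold above ESC2. Counting all induced lines, 14 of 15 were above their ESC, as for 1.21% of 10732 genes measured in all sets. S100a1 was above ESC in 13 of 15 lines, as for 3.36% of those genes, with a fitted CiPSC difference of 0.02 ± 0.47. OSKM iPS1 was also the highest pluripotent sample for S100a1, at 3459.

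The remaining members did not pass the test between CiPSC and ESC. S100a4 differed by 0.72 ± 0.74, S100a6 by 0.58 ± 0.56 and S100a10 by -0.29 ± 0.29, each at a limma adjusted p of 1. No member was called in OSKM iPSC against ESC, where 0.0175% of genes were called, in SKM-FSK iPSC against ESC, where 0.00615% were called, or in OSKM iPSC against CiPSC, where 0% were called by limma and 611 of 11406 genes had an unadjusted p under 0.05. Of the members in these 3 comparisons, 1 had an unadjusted p under 0.05, S100a13 in OSKM iPSC against ESC (2.02 ± 0.88, unadjusted limma p = 0.0321). Over all genes tested, 655 of 11406 had such a p in OSKM iPSC against ESC and 415 of 16260 in SKM-FSK iPSC against ESC.

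**Figure D3:**
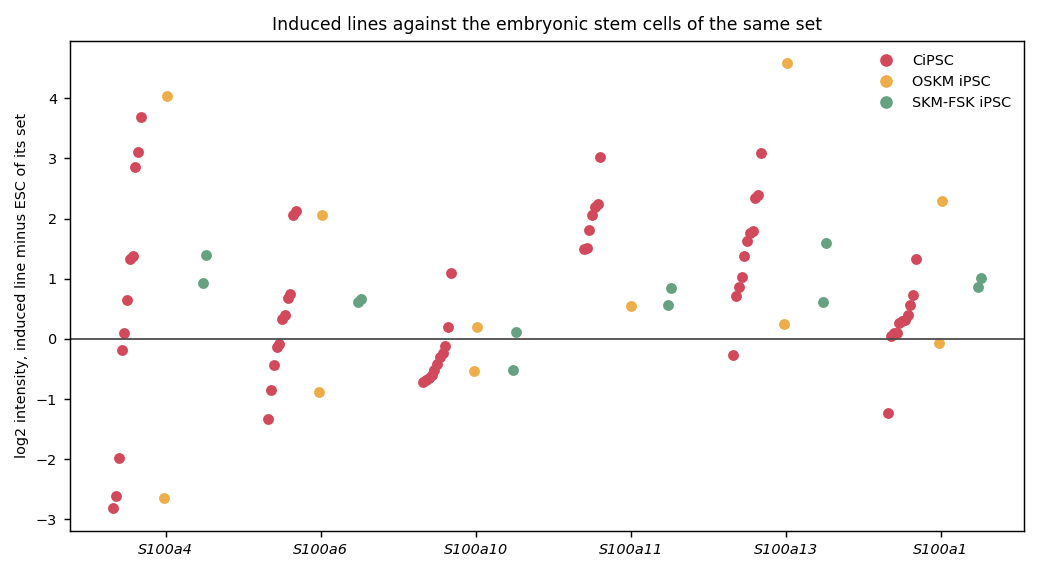
Difference in log2 intensity between each induced line and the ESC sample of its set, by gene and kind of line, with 0 meaning equal to ESC. All 10 S100a11 points and 14 of 15 S100a13 points lie above 0, while S100a4 and S100a6 scatter on both sides.

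During treatment of MEF, S100a4, S100a10 and S100a11 had intensities near those of MEF3, and S100a6 was near the upper end of the scale. S100a1 was higher than in MEF3 at each day. S100a13 was below MEF3 by 1.47-fold at day 12, by only 1.18-fold at day 20 and by 2.44-fold at day 32. In the established line all 6 were below MEF3. The 6 samples of set 5 were MEF3, days 12, 20 and 32, the CiPSC control and ESC5, with 1 sample each, so no test was possible. S100a4 had 23490 in MEF3, then 22698, 29399 and 22275 at days 12, 20 and 32, and 429 in the CiPSC control. S100a6 had 64678 in MEF3 and the same value at day 12, then 62900 and 60349, at the upper end of the scale, and 3967 in the CiPSC control. S100a11 had 16627, 16140, 13035 and 12507 up to day 32, then 3921. S100a10 had 9982, 12694, 12601 and 12240, then 6739. S100a4, S100a10 and S100a11 were within 1.33-fold of MEF3 at these days, whereas a change of S100a6 near the upper end of the scale could not be read.

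S100a1 took another course. Its intensity was 2068 in MEF3, 4745 at day 12, 6561 at day 20 and 10069 at day 32, 4.87-fold above MEF3 and the highest of all 30 samples, before 485 in the CiPSC control and 1138 in ESC5. S100a13, which starts beside it on the other strand, had 1611, 1098, 1364 and 660, then 228 in the CiPSC control and 126 in ESC5. At day 32, 2 of 6 members thus differed from MEF3 by more than 2-fold, S100a1 above and S100a13 below, as did 53.2% of 26397 probes in either direction. From day 32 to the CiPSC control, 5 of 6 members were lower by more than 2-fold, which held for 15.8% of probes, and S100a10 was lower by 1.82-fold. The fibroblast marker sum was 307, 244 and 186% of MEF3 at days 12, 20 and 32 and 2.18% in the CiPSC control. Single markers differed in course, with Pdgfra at 1610 in MEF3 and 15180, 0.1 and 3574 at days 12, 20 and 32, and Pdgfrb at 3803 in MEF3 and 2.83, 0.85 and 0.38. The smooth muscle marker sum was 4.94, 5.73 and 6.15% of MEF3 at these days. The part of a changed cell makeup in the S100 levels of set 5 was not tested.

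**Figure D4:**
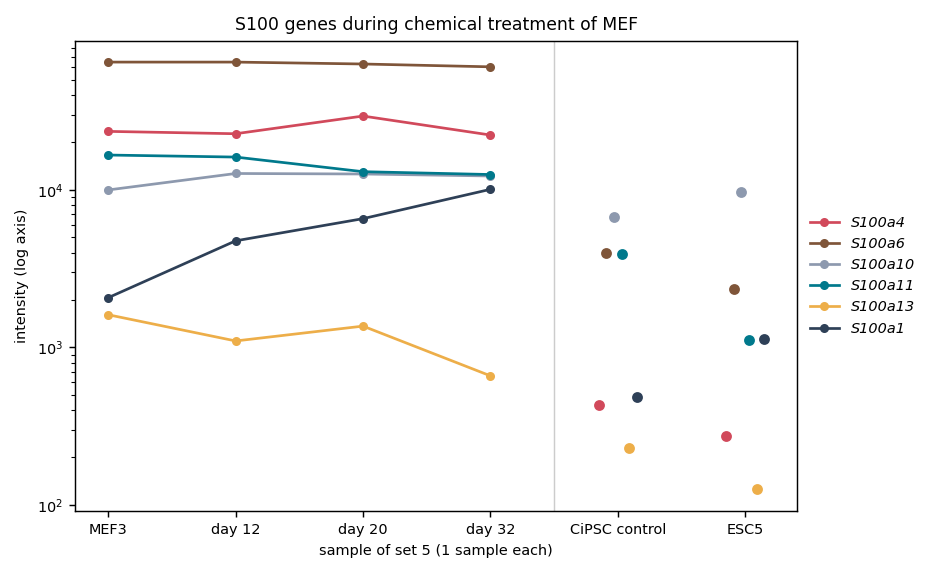
Intensity (log axis) of the 6 genes in set 5, with 1 sample per point and lines joining MEF3 and the days of treatment. S100a4, S100a10 and S100a11 stay near their MEF3 level to day 32, S100a6 sits near the upper end of the scale, S100a1 climbs from 2068 to 10069, and all 6 are lower in the CiPSC control than at day 32.

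Of the 14 other S100-named genes 8 could be tested in CiPSC against somatic cells, and 1, S100a16, was called, lower, as were 13.1% of all genes. S100a16 had 852 (WT MEF) to 8369 (ADSC) in somatic cells, 62.8 to 420 in CiPSC and 58.9 to 200 in ESC. S100a16 was higher in the OSKM iPSC lines, at 781 in OSKM iPS1 and 505.5 in OSKM iPS2. Its difference from somatic cells was -3.52 ± 0.34 in CiPSC (limma adjusted p = 3.9e-08) and -3.92 ± 0.39 in ESC (limma adjusted p = 1.3e-07). Of 43 other genes with a named probe between the outermost S100 genes of chromosome 3, 29 were tested and 2 were lower in CiPSC, Sprr1a (-1.34) and Sprr2k (-1.18), both of the small proline-rich family of the skin barrier.

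Among 34 listed partners of S100 proteins, 26 were tested in CiPSC against somatic cells, of which 13 were lower and 1 higher, with a median of -1.24 against -0.11 over all genes. Of all 16497 genes tested, 13.1% were called lower and 14.6% higher. The 4 largest falls were Plat, the tissue plasminogen activator (-3.85 ± 0.36), the annexin Anxa5 (-3.51 ± 0.35), Lmna, which encodes lamin A and C (-3.02 ± 0.34), and the lysosomal protease Ctsb (-2.95 ± 0.40). Anxa2, the partner of S100a10, and Ahnak, a scaffold bound by their complex, also fell (-2.20 ± 0.36 and -2.16 ± 0.26), whereas Cacybp, the S100a6 partner, rose (2.08 ± 0.36). These last 3 were singled out after their values were seen. In CiPSC against ESC none of the 26 partners was called by limma. An unadjusted limma p under 0.05 held for 3 of them and for 799 of all 16497 genes tested. Of 25 other EF-hand genes tested, 9 were lower and 4 higher in CiPSC than in somatic cells, with a median of -0.65, against the same shares of all genes. The largest were the alpha-actinin Actn4 (5.26 ± 0.81), the myosin light chain Myl9 (-3.85 ± 0.53), the calpain Capn2 (-3.51 ± 0.32) and tescalcin, Tesc (2.72 ± 0.43).

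Genes with the pattern most like each member were ranked by Pearson's r of log2 intensity, centred on the mean of each set, over the 30 samples (21 for S100a11). For S100a4 these were Cav1 (0.97), Timp3 (0.97) and Ehd2 (0.97), and for S100a6 Cav1 (0.95), Ehd2 (0.95) and S100a4 (0.95). S100a11 was most like Notch2 (0.96), Phldb1 (0.95) and Rhob (0.95), and S100a10 most like Serf1 (0.91), Rab28 (0.90) and Creb3 (0.90). The values for S100a1, with Erich2 (0.83), Aldh1a2 (0.82) and Hs3st1 (0.82), and for S100a13, with Plbd2 (0.76), Sdc4 (0.75) and S100a1 (0.75), were lower. The samples share sets and fall into somatic and pluripotent cells, so these coefficients are descriptions.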

How the data were processed

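The deposited table holds 1 intensity per probe and sample on a linear scale. Per the labels, RNA was labelled with Cy5 and hybridised to an oligonucleotide array, and per the series' design text the authors normalised 5 sets separately, with 3 replicates per sample in sets 1, 2 and 4 and 2 in sets 3 and 5. Each column thus appears to be a mean, and whether replicates were separate cultures is not given in the sources used here, so p-values measure the spread between lines and samples. The scanner and background correction are likewise not given in the sources used here. Of 26423 probes, 21876 carried 1 gene and 4547 none.

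Here intensities deposited by the authors were log2-transformed (values at 0 set to 1e-04, the smallest positive one), and 1 probe stood for a gene. Differences were fitted with limma 3.58.1 in R 4.3.3, with group and set as terms over all 30 samples, with p-values adjusted over the whole table by the Benjamini-Hochberg method. Genes needed at least 2 sets holding both groups (1 for SKM-FSK iPSC) and 3 residual degrees of freedom. The SKM-FSK iPSC lines were in set 4 alone, so their fitted differences also depend on samples of other sets and can depart from those within set 4. Figures used matplotlib 3.10.9. The fit was tested on simulated data. Sequences are from RefSeq. The members, lists and tests were chosen with earlier results of these data known. From each list up to 4 called genes with the largest difference, or up to 2 others, were named. The number of arrays limits precision.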

Additional observations from a re-analysis of the deposited data

Results flagged for a closer look

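S100a13 moved in opposite directions in 2 sets. In set 1 all 4 CiPSC lines were above MEF1, with a median log2 difference of 0.72, and in set 3 both CiPSC lines were below WT MEF, with a median of -1.09. The medians differ by 1.81, and this difference between the sets was not tested. Among 17 groups of 4 to 10 samples, no S100 value stood far apart from the others by Dixon's criterion.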

How the results depend on the processing

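The members were called again under other normalisations, low-value floors, a filter on dim genes, other probes, variance priors and call rules, and with each sample or set left out. Of 1251 member results so obtained 1208 stayed on their side of the threshold, 41 lost the call, 2 gained it and 0 called values reversed. Results not called in the main fit could not lose a call, so the 1208 include many that were never called. Each member had 1 probe, so using other probes left its own values unchanged. Differences that were not called could change sign, as S100a1 in CiPSC against ESC did (-0.12 to 0.21 with single samples left out). The number of members called in CiPSC against ESC was 1, and 0 with no set term, with only sets holding both groups (S100a11 adjusted p = 0.154), without set 1 (1), set 3 (0.401) or set 4 (0.154), or without the CiPSC lines of set 3, an alternative chosen after seeing the data. Leaving out single samples gave 0 to 1. The cause was not tested. The numbers in the sample titles are line names and do not pair samples. With them as a replicate block (correlation 0.128) 5 members were called in CiPSC against somatic cells, 6 in ESC against somatic cells and 1 in CiPSC against ESC (S100a11 adjusted p = 0.0254), and no call of a member changed. For S100a10 in ESC against somatic cells, R1 as the only ESC line gave -0.99 and MEF as the only somatic samples -0.91. OSKM iPSC could not be fitted without either of its lines, or with MEF only against somatic cells, since 1 set then remained. The upper end of the scale limits S100a6 in somatic cells.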

Other observations

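S100a14 and S100a3, other genes of the chromosome 3 cluster singled out after their values were seen, changed within set 5. S100a14 had 398 at day 32 and 36.5 to 96.1 in the other 5 samples of the set. S100a3 had 1650 in MEF3, then 515, 645 and 584 at days 12, 20 and 32, 228 in the CiPSC control and 133 in ESC5. Summed markers of extraembryonic endoderm were 86.0, 239 and 557% of MEF3 at days 12, 20 and 32, in the samples where S100a1 had 4745, 6561 and 10069. Such a rise was not particular to this list. Of the other marker lists, only the fibroblast sum was lower at day 32 than at day 12. The sum of pluripotent markers, for example, was 54.7% of MEF3 at day 12 and 207% at day 32. Each value is 1 sample, and whether these markers and S100a1 are linked was not tested.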
